A study of Mus musculus with 6 samples.

Results

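The translation initiation factors were taken as every gene whose symbol begins with Eif and a digit, without the Y-linked Eif2s3y. Among 19938 genes with a probe set of 1 symbol there were 48 such genes. For the 7 of them with several probe sets, the brightest on average across the 6 arrays was used, so measured levels chose the probe sets and no level is tested here. Where each probe set lies in the genome was not checked, so the brightest may not be at the gene itself. The set was proposed for the comparison of wild type with MYB knockdown with its results known, so counts and medians over the set are descriptions. The test covered 47 of the 48 genes. Eif4a3l1 was left out because its mean lay in the lowest 30% of genes.

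The cells were Kit+CD11b+Lin-Low bone marrow cells, called K11bL in the labels, a myeloid progenitor gate sorted by flow cytometry. They came from 3 wild type and 3 MYB knockdown mice, all C57BL6 males 4 weeks old. Neither the means by which Myb was lowered nor the lineage markers of the gate are named in the labels. Total RNA was put on Affymetrix whole-transcript arrays, 1 array per mouse, and all values are on the log2 scale as deposited. Differences are knockdown minus wild type with the standard error (SE) of a limma fit across 13956 genes, whose Benjamini-Hochberg adjusted p had to lie under 0.05 for a gene to be called higher or lower.

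Initiation is the step of translation at which a ribosome is brought to the start codon of an mRNA. The factor eIF2 carries the initiator tRNA as a complex with GTP and is recharged by the exchange factor eIF2B. The multi-subunit factor eIF3 holds the small ribosomal subunit, and the eIF4 factors bind the cap of the mRNA, bridge it to the ribosome and unwind the leader. Cells restrain the process by phosphorylating eIF2 alpha, which blocks eIF2B, or by releasing proteins that hold the cap-binding factor eIF4E. The need for these factors is high in growing progenitors.

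Myb, the transcription factor that the study lowered, had values of 11.47, 11.46 and 11.46 in the wild type mice and 11.26, 11.08 and 11.14 in the knockdown mice. Each knockdown mouse lay below each wild type mouse, and Myb fell by 0.30 ± 0.06 (SE, n = 3 per group, adjusted p = 0.0196). The adjusted p lay between 0.0777 and 0.0963 without knockdown mouse 2 or any 1 wild type mouse. It was 0.074 after median centring of the arrays and 0.0662 without the trend of eBayes in limma. The place of the Myb probes relative to the knockdown is not given in the labels. The sort markers had lower values in the knockdown. Kit, the receptor of stem cell factor, lay between 10.38 and 10.58 in wild type and between 10.21 and 10.24 in knockdown, without overlap (difference -0.27 ± 0.08, adjusted p = 0.06). Itgam, the CD11b chain, lay between 9.81 and 9.90 in wild type and at 9.85, 9.43 and 9.07 in knockdown (difference -0.39 ± 0.17, adjusted p = 0.202). With limma 0 of these 2 genes were called lower and 1 was lower at an unadjusted p under 0.05; 1 was called with quantile normalization, with the filter at 50% and without knockdown mouse 1 or 3, and 2 with array weights. Knockdown mouse 3 stood apart over all probe sets, correlating at 0.977 and 0.984 with knockdown mice 1 and 2, which correlated at 0.994 with each other. The mean levels of the neutrophil, megakaryocyte and B lymphoid marker lists differed between the groups without overlap. Those of the erythroid list overlapped. Of 10 neutrophil markers, most of them granule proteins, 8 fell, and the list's mean level lay between 11.74 and 11.93 in wild type and between 9.83 and 10.52 in knockdown. Of 6 megakaryocyte genes 5 rose, with mean levels between 7.20 and 7.30 in wild type and between 8.71 and 8.79 in knockdown. Of 6 B lymphoid genes tested 3 fell, with mean levels over the 7 measured between 6.76 and 7.35 in wild type and between 6.15 and 6.39 in knockdown. Of 5 erythroid genes 0 passed limma's adjusted test and 2 had an unadjusted p under 0.05; their mean level lay between 7.16 and 7.55 in wild type and was 7.60, 7.13 and 8.02 in knockdown mice 1, 2 and 3. The part of the sort markers and these lists in the results on initiation factors was not tested. In bulk RNA, fewer cells of a type and less RNA per cell cannot be told apart.

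Most initiation factor genes had slightly higher values in the knockdown, and few of them passed the test. The difference was above 0 for 41 of 47 genes (39 with quantile normalization, 44 with median centring), where it was above 0 for 53.6% of all genes tested. The median difference was 0.19, against 0.02 over all genes tested. All genes were not matched to the members by level. With the filter on dim genes at 50% the medians were 0.19 and 0.03. Those called higher were 3 genes, Eif5a2, Eif2b3 and Eif3i, where 6.12% of all genes were called higher, so the share called was near that of all genes. With limma 0 members were called lower, where 5.48% of all genes were. At an unadjusted p under 0.05, 1 of the 47 members was lower, beside 10.6% of all genes. The groups did not overlap, with knockdown higher, for 20 of the 47 members, where this held for 2778 of 13956 genes (19.9%). They did not overlap, with knockdown lower, for 2 of the 47, where this held for 2004 of 13956 genes (14.4%). At the same unadjusted p, 16 of the 47 members were higher, beside 2099 of 13956 genes (15%).

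**Figure D1:**
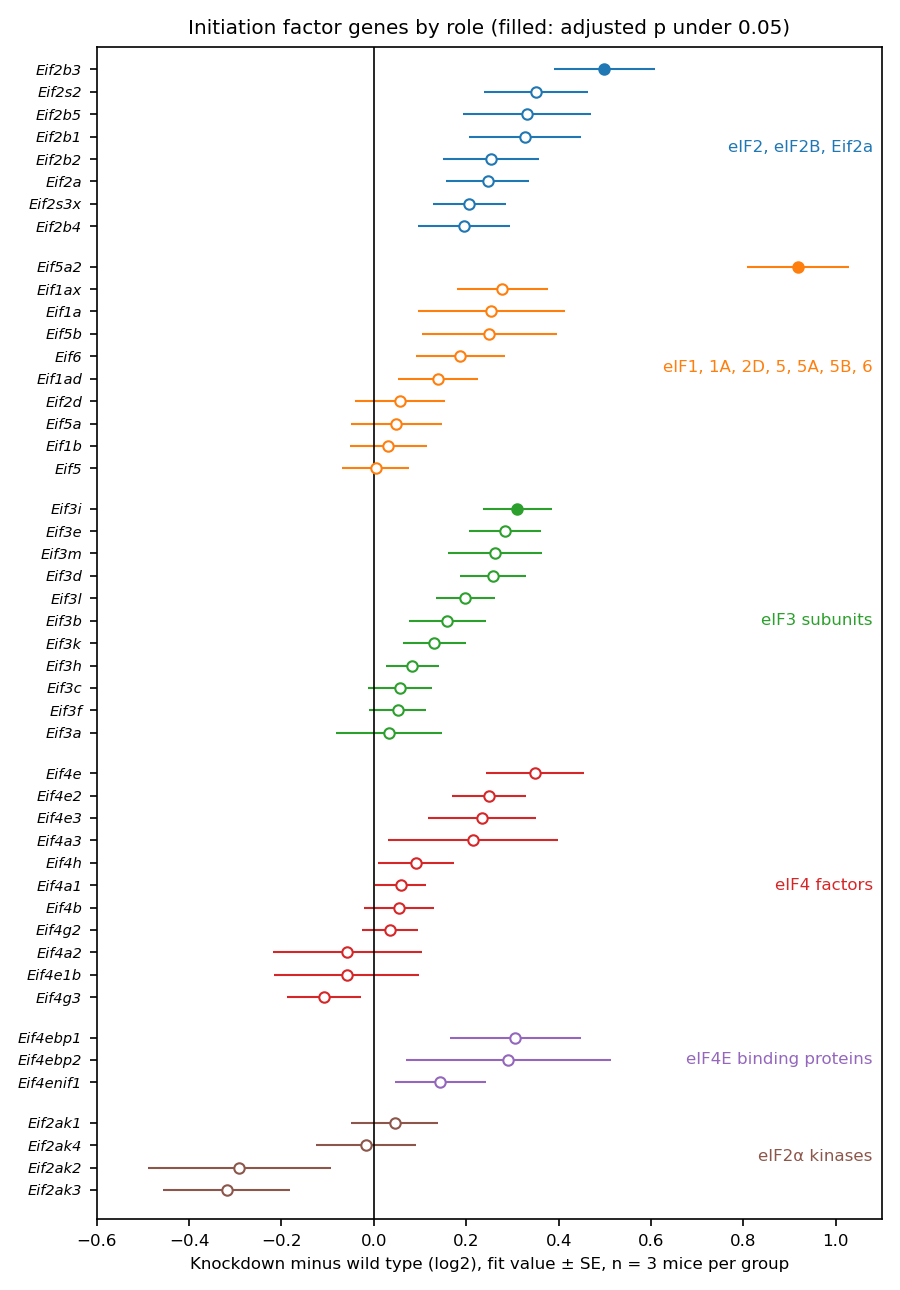
Difference between knockdown and wild type (log2, horizontal axis) with its SE for the 47 initiation factor genes tested, grouped by role, n = 3 mice per group; filled points passed the adjusted test. The 8 genes of the eIF2 and eIF2B group and the 11 eIF3 subunits all lie to the right of 0 (10 of the 11 subunits with quantile normalization), and 3 of the 4 eIF2 alpha kinases lie to the left (2 with median centring).

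**Figure D2:**
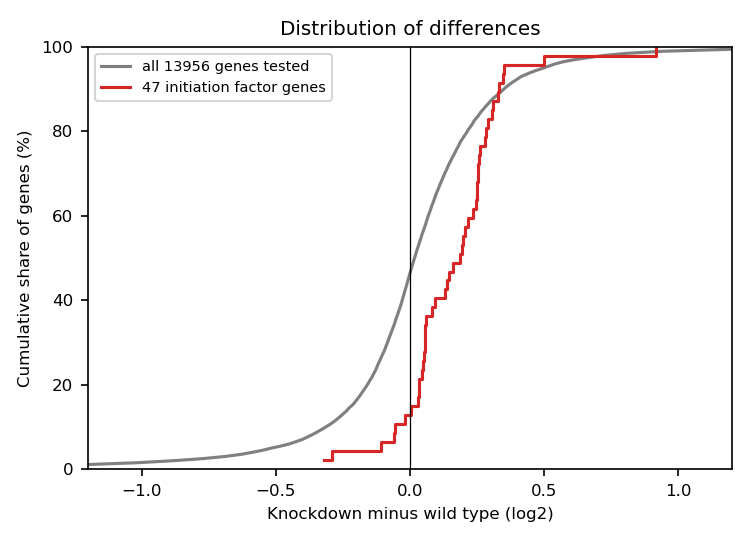
Cumulative share of genes (vertical axis, percent) at or below each difference (horizontal axis, log2; cut at -1.2 and 1.2) for all 13956 genes tested and for the 47 initiation factor genes. The curve of the initiation factors crosses the middle of the axis at 0.19 and that of all genes at 0.02.

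The size of this shift differed between the knockdown mice. The median of the members' values relative to the wild type mean was 0.16 in knockdown mouse 1, 0.19 in mouse 2 and 0.07 in mouse 3. Over all genes tested the same medians were 0.01, 0.03 and 0.05. Of the 47 members, 39 lay above every wild type mouse in knockdown mouse 1, 38 in mouse 2 and 24 in mouse 3. Of all genes tested, 40.9%, 41.3% and 45.1% did so in the same mice, against 83.0%, 80.9% and 51.1% of the members, so the share in mouse 3 was near that of all genes. Knockdown mouse 3 had the lowest of the 3 knockdown values for 37 of the 47 members, where it was the lowest for 42.9% of all genes. Among the wild type mice, mouse 2 was the lowest for 29 of the 47 members, a count not made over all genes. The members' median relative to the other wild type mice was 0.04, -0.05 and 0.03 in wild type mice 1, 2 and 3. Over all genes tested it was -0.011, 0.005 and 0.009.

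The count of members called depended on which array was left out. Without knockdown mouse 3, 24 of 47 were called higher, where 17.2% of all genes were. Without knockdown mouse 2 or without any 1 wild type mouse, the call of Eif5a2 alone was left, where 3.09% of all genes were called higher without that knockdown mouse and 2.12%, 2.19% and 2.54% without wild type mouse 1, 2 or 3. Without knockdown mouse 1 there were 2 calls among the 47 members (4.26%), beside 5.57% of all genes. The median difference stayed between 0.14 and 0.19 over these 6 fits. After median centring of the arrays, 8 of the 47 members (17%) were called higher, beside 10.3% of all genes. The share of higher genes among all calls was then 70.7% in place of 52.7%.

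**Figure D3:**
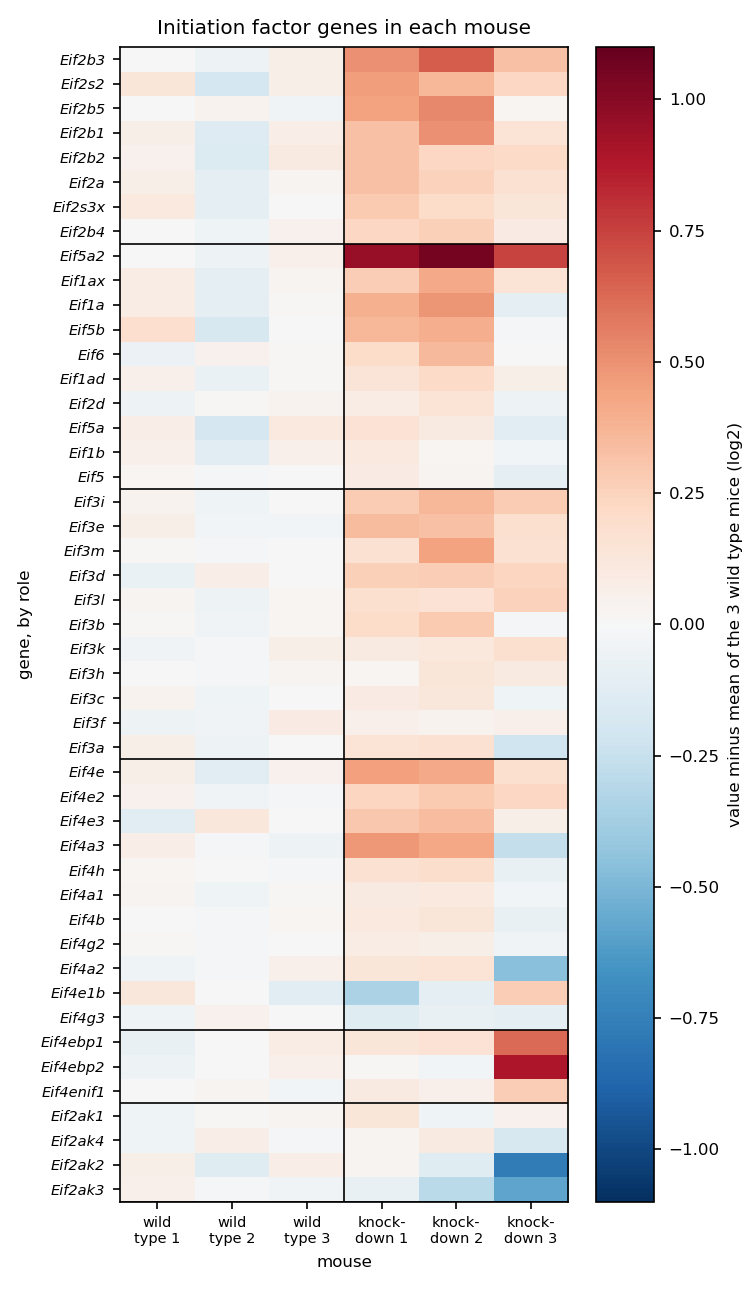
Value of each of the 47 initiation factor genes in each mouse minus the mean of the 3 wild type mice (log2, colour scale), with genes grouped by role in rows and mice in columns. Knockdown mice 1 and 2 are red in most rows, while knockdown mouse 3 is paler or blue in many of them and is red for Eif4ebp1 and Eif4ebp2.

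Eif5a2 had the largest difference of the 47 members. It encodes eIF5A2, a paralogue of eIF5A; these proteins carry the amino acid hypusine and, despite their name, act mainly as the peptide chain is extended and released. Its values were 6.42, 6.36 and 6.48 in wild type and 7.38, 7.47 and 7.17 in knockdown. All 3 knockdown mice lay well above all wild type mice, with mouse 3 the lowest of them. Eif5a2 rose by 0.92 ± 0.11 (1.89-fold, n = 3 per group, adjusted p = 0.0014), and its adjusted p lay between 6.71e-05 and 0.0145 with any 1 array left out. For the paralogue Eif5a no difference passed. Its values were 11.64, 11.38 and 11.67 in wild type and 11.72, 11.66 and 11.45 in knockdown, so the groups overlapped (difference 0.05 ± 0.10, adjusted p = 0.828). A second, dimmer probe set of Eif5a had values of 10.02, 9.95 and 9.97 in wild type and 10.14, 10.10 and 10.10 in knockdown; its groups did not overlap, and its difference of 0.13 did not pass (adjusted p = 0.312 with probe sets kept apart). The difference between the paralogues was not tested.

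Both enzymes that make hypusine on eIF5A were measured. Dohh, the hydroxylase of the second step, had values of 6.80, 6.70 and 6.93 in wild type and 7.36, 7.34 and 7.16 in knockdown. Its groups did not overlap, and it rose by 0.48 ± 0.11 (adjusted p = 0.0276). The call was left with knockdown mouse 3 out (adjusted p = 0.00292) and lost with any other array out, at adjusted p between 0.0589 and 0.14. Dhps, the synthase of the first step, differed by 0.22 ± 0.14 (adjusted p = 0.399; named after its values were seen).

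The promoters of the members are shown because so many of them lay on the same side of 0. In the RefSeq table (GRCm38.p6), 38 of the 48 genes had an entry. The 250 bases before the first listed start are printed for the 3 genes of smallest p that had one, 5′ to 3′ on the strand of the gene. Eif4e is among them through the probe set used. Its other 2 probe sets had limma adjusted p of 0.873 and 0.916 with probe sets kept apart. Capitals mark, on either strand, the letters CACGTG (the E-box of MYC, MAX and USF proteins), CCGGAAG (the core of ETS factor sites) and AACNG (the core of MYB sites).
Eif5a2, chr3:28781027-28781276, plus strand: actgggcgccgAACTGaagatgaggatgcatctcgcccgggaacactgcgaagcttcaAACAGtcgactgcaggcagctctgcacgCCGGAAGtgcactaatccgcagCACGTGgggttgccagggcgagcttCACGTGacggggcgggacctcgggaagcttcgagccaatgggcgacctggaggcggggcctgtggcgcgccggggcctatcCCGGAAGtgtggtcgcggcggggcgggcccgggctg
Eif3d, chr15:77970825-77971074, minus strand: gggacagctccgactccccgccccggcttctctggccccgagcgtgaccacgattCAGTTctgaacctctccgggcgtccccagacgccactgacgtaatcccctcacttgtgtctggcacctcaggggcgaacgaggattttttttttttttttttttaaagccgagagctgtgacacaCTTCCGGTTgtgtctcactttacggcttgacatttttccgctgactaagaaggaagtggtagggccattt
Eif4e, chr3:138525941-138526190, plus strand, the first of 2 listed starts: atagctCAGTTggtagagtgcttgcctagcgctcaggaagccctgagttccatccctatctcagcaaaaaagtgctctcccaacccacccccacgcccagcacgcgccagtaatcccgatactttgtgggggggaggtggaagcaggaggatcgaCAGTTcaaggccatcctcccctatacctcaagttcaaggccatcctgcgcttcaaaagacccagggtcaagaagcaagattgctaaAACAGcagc
The window of Eif5a2 held 2 E-boxes, 2 ETS cores and 2 MYB cores. That of Eif3d held 1 ETS core, which overlaps 1 of its 2 MYB cores, and that of Eif4e held 3 MYB cores with 0 matches to the other motifs. Over all 38 members with an entry, 15.8% held an E-box, against 6.05% of 27025 promoters of the same length, and 23.7% held an ETS core, against 7.05%. The MYB core was in 71.1% of the members and 74.1% of all promoters, and CCAAT was in 31.6% and 34.5%. The GC box GGGCGG was in 68.4% of the members and 32.9% of all promoters, and the median GC content of the windows was 59.6% and 52%. These are matches of letters, not sites.

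The genes of eIF2 and its exchange factor were above 0 in all 8 members tested, under each scaling tried, with a median difference of 0.29 and a range from 0.19 to 0.50. Eif2s1, the alpha subunit, is not analysed here. Eif2b3, the gamma subunit of eIF2B, had values of 8.91, 8.86 and 8.98 in wild type and 9.42, 9.58 and 9.24 in knockdown. The groups did not overlap, and knockdown mouse 3 was the nearest to wild type. Eif2b3 rose by 0.50 ± 0.11 (1.41-fold, adjusted p = 0.0228). With knockdown mouse 1 left out the adjusted p was 0.0499, with mouse 3 left out it was 0.000522, and with any other array left out it lay between 0.0781 and 0.113.

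Of the other genes in this group none passed. Wild type and knockdown did not overlap, with knockdown higher, for 7 of all 8 genes, where this held for 19.9% of all genes tested. They overlapped for Eif2b5 (named after its values were seen). Eif2s2, the beta subunit of eIF2, lay at 9.76, 9.43 and 9.69 in wild type and 10.09, 9.99 and 9.85 in knockdown. All knockdown mice were higher, by 0.35 ± 0.11 on average (adjusted p = 0.0863). Its second probe set differed by 0.54 (adjusted p = 0.0519 with probe sets kept apart). Eif2b1, the alpha subunit of eIF2B, lay at 8.58, 8.38 and 8.59 in wild type and 8.84, 9.02 and 8.67 in knockdown (difference 0.33 ± 0.12, adjusted p = 0.131). Eif2a, a separate factor that can bring the initiator tRNA, lay at 9.59, 9.42 and 9.56 and then 9.85, 9.78 and 9.69 (difference 0.25 ± 0.09, adjusted p = 0.123). In both genes all knockdown mice lay above all wild type mice, with knockdown mouse 3 the nearest to them. Eif2b5, the catalytic subunit of eIF2B, had values of 9.22 and 9.30 in knockdown mice 1 and 2 and 8.80 in mouse 3, the last within the wild type range of 8.74 to 8.82. Without knockdown mouse 3 all 8 genes of the group were called higher, where 17.2% of all genes were.

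Of the 4 kinases of eIF2 alpha 1 was above 0 (2 with median centring), and with limma 0 passed the adjusted test, with 1 lower at an unadjusted p under 0.05. Eif2ak3 (PERK), the kinase of endoplasmic reticulum stress, had values of 8.44, 8.36 and 8.35 in wild type and 8.31, 8.09 and 7.80 in knockdown. Its knockdown values were lower without overlap and spread widely (difference -0.32 ± 0.14, adjusted p = 0.188). Eif2ak2 (PKR), the kinase that senses double-stranded RNA, lay at 8.31, 8.10 and 8.31 in wild type and 8.27, 8.11 and 7.47 in knockdown. Only knockdown mouse 3 was below the wild type range (difference -0.29 ± 0.20, adjusted p = 0.424). Eif2ak1, the haem-regulated kinase, differed by 0.05 ± 0.09 (adjusted p = 0.833) and Eif2ak4 (GCN2), the sensor of uncharged tRNA, by -0.02 ± 0.11 (adjusted p = 0.955); neither kept its sign under every setting, and Eif2ak4 changed sign with median centring.

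The eIF3 subunits were above 0 in 11 of 11 genes tested (10 with quantile normalization), with a median of 0.16 and a range from 0.03 to 0.31. Eif3g and Eif3j (also under the symbols Eif3j1 and Eif3j2) are not analysed here. Eif3i, a subunit with the fold of a propeller, had values of 10.05, 9.97 and 10.02 in wild type and 10.30, 10.38 and 10.29 in knockdown. Both groups were tight and did not overlap. Eif3i rose by 0.31 ± 0.07 (1.24-fold, adjusted p = 0.0314). The adjusted p was 0.00337 without knockdown mouse 3 and between 0.055 and 0.145 without any other array, it was 0.0521 without the trend of eBayes and 0.057 after centring on probe sets with 1 symbol.

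Just past the threshold lay 2 further subunits. Eif3e had values of 10.38, 10.29 and 10.29 in wild type and 10.67, 10.65 and 10.49 in knockdown (difference 0.28 ± 0.08, adjusted p = 0.0527). Eif3d, a subunit that can itself bind the cap, lay at 10.26, 10.41 and 10.35 in wild type and 10.60, 10.61 and 10.58 in knockdown (difference 0.26 ± 0.07, adjusted p = 0.0535). The knockdown mice were above the wild type mice in both. Eif3l lay at 10.89, 10.82 and 10.89 and then 11.05, 11.03 and 11.12, with knockdown mouse 3 the highest (difference 0.20 ± 0.06, adjusted p = 0.0873). Eif3m was the subunit whose 2 probe sets gave different calls (named after its values were seen). The brighter one, used here, differed by 0.26 ± 0.10 (adjusted p = 0.144), and the dimmer one rose by 0.43 ± 0.11 (adjusted p = 0.0402 with probe sets kept apart). Without knockdown mouse 3, 6 of the 11 subunits were called higher, where 17.2% of all genes were.

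The eIF4 factors were mixed, and Eif4g1 is not analysed here. Of 11 genes tested 8 were above 0 (9 with quantile normalization, 10 with median centring), the median was 0.06, and 0 passed limma's adjusted test, with 2 higher at an unadjusted p under 0.05. Without knockdown mouse 3, 5 of the 11 were called higher, where 17.2% of all genes were, and the median was 0.14. With median centring 2 of the 11 were called higher, where 10.3% of all genes were, and the median was 0.13. Eif4e, the cap-binding protein, lay at 9.35, 9.17 and 9.34 in wild type and 9.74, 9.70 and 9.47 in knockdown. The groups did not overlap on this probe set (difference 0.35 ± 0.11, adjusted p = 0.0739, and 0.00233 without knockdown mouse 3). The other 2 probe sets of Eif4e overlapped between the groups and differed by 0.07 and -0.04, and with the mean of the 3 probe sets the difference was 0.13 (adjusted p = 0.518). Eif4e2, a cap-binding relative that represses translation, lay at 9.57, 9.49 and 9.51 and then 9.76, 9.81 and 9.75. Its knockdown values were tight and all higher (difference 0.25 ± 0.08, adjusted p = 0.0842). Eif4e3, a further relative, differed by 0.23 ± 0.12 (adjusted p = 0.262). Eif4g3, a scaffold protein, was lower by little without overlap, at 9.54, 9.62 and 9.58 in wild type and 9.45, 9.50 and 9.47 in knockdown (difference -0.11 ± 0.08, adjusted p = 0.475). The helicase gene Eif4a1 was near level on each of its 3 probe sets, with differences from 0.06 to 0.11 (named after its values were seen). Eif4a3, a helicase of the exon junction complex, lay at 9.70 and 9.65 in knockdown mice 1 and 2 and at 8.96 in mouse 3, below the wild type range of 9.17 to 9.30 (named after its values were seen).

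The genes for proteins that hold or move eIF4E differed most in knockdown mouse 3 on the probe sets used. Eif4ebp3 is not analysed here. Eif4ebp1, a binding protein that mTOR switches off, had values of 8.834, 8.915 and 8.998 in wild type and 9.052, 9.076 and 9.537 in knockdown. The groups did not overlap, and mouse 3 set the size (difference 0.31 ± 0.14, adjusted p = 0.221, and 0.15 without that mouse). Eif4ebp2, its relative, lay at 9.55, 9.60 and 9.65 in wild type and at 9.61, 9.57 and 10.49 in knockdown. Knockdown mice 1 and 2 were within the wild type range, and without mouse 3 the difference of 0.29 ± 0.22 (adjusted p = 0.484) became -0.01. Eif4enif1, which carries eIF4E into the nucleus, differed by 0.14 ± 0.10 (adjusted p = 0.431), with its highest value, 8.79, in knockdown mouse 3. Its second, dimmer probe set went the other way, with the lowest value of all 6 arrays, 6.31, in that mouse and a difference of 0.05 (adjusted p = 0.844 with probe sets kept apart).

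The remaining group holds factors that choose the start codon, join the subunits or keep them apart, together with Eif5a and Eif5a2. Eif1 is not analysed here. All 10 genes of this group were above 0 (8 with quantile normalization, 9 with centring on probe sets with 1 symbol), with a median of 0.16, and Eif5a2 was the only one called. Eif1ax, a form of eIF1A, which helps the small subunit scan, lay at 9.85, 9.66 and 9.79 in wild type and 10.03, 10.18 and 9.92 in knockdown. The groups did not overlap (difference 0.28 ± 0.10, adjusted p = 0.114). Eif5b, the GTPase of subunit joining, lay at 8.15, 7.80 and 7.97 in wild type and 8.33, 8.37 and 7.96 in knockdown. Knockdown mouse 3 fell within the wild type range (difference 0.25 ± 0.15, adjusted p = 0.344). Eif6, which keeps the large subunit from joining early, lay at 10.55, 10.66 and 10.63 and then 10.82, 10.97 and 10.62, with mouse 3 again inside the wild type range (difference 0.19 ± 0.10, adjusted p = 0.273). Without knockdown mouse 3, 5 of the 10 were called higher, where 17.2% of all genes were.

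Genes that work with these factors were read from 6 lists of 66 tested genes. Of the 66 genes, 10 rose and 2 fell, where 6.12% of all genes rose and 5.48% fell. Without knockdown mouse 3, 24 of the 66 rose and 4 fell, where 17.2% of all genes rose and 10% fell. The list of targets of the integrated stress response, the program that follows phosphorylation of eIF2 alpha, had 5 of 14 genes that rose, with a median difference of 0.23. Between 4 and 7 of them rose with any 1 array left out, where between 2.12% and 17.2% of all genes did. Mthfd2, a mitochondrial enzyme of one-carbon metabolism, lay at 8.62, 8.76 and 8.74 in wild type and 9.64, 9.68 and 9.55 in knockdown. It rose in each knockdown mouse to a like degree, by 0.92 ± 0.09 (1.89-fold, adjusted p = 0.000562). Psat1, an enzyme of serine synthesis, lay at 10.06, 9.95 and 10.02 and then 10.69, 10.67 and 10.49, a rise by 0.60 ± 0.08 (adjusted p = 0.00279). Slc3a2, the heavy chain of amino acid transporters, rose by 0.57 ± 0.06 (adjusted p = 0.000861). The other calls were Shmt2, which supplies one-carbon units from serine, with a rise by 0.65 ± 0.09, and Sesn2, also known as a p53 target, with a rise by 0.61 ± 0.10 (both named after their values were seen).

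The other genes of this list were not called, among them Atf4, Atf3, Ddit3, Asns and Trib3 (named after their values were seen). Atf4, the central transcription factor of the response, lay at 8.39, 8.15 and 8.40 in wild type and 8.62, 8.67 and 8.50 in knockdown. The groups did not overlap (difference 0.28 ± 0.11, adjusted p = 0.153). Nor did they for Atf3, which was higher in knockdown (difference 0.23 ± 0.09, adjusted p = 0.159). Ddit3 (CHOP) differed by -0.15 ± 0.10 (adjusted p = 0.418), Asns, asparagine synthetase, by -0.06 ± 0.08 (adjusted p = 0.752), and Trib3 by 0.10 ± 0.11 (adjusted p = 0.662).

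**Figure D4:**
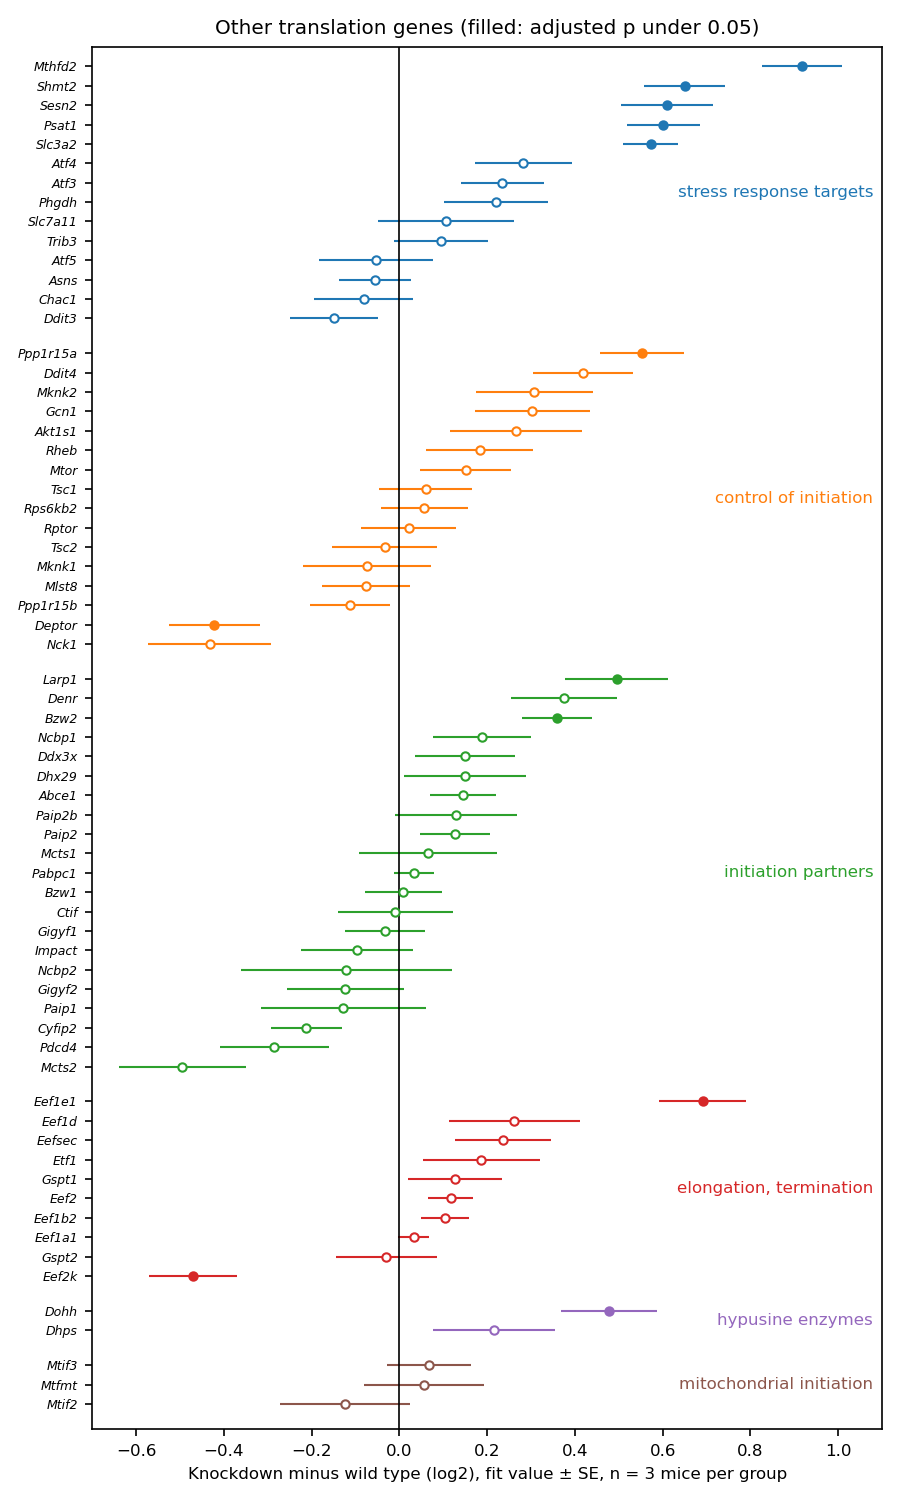
Difference between knockdown and wild type (log2, horizontal axis) with its SE for the 66 tested genes of the 6 lists of other translation genes, n = 3 mice per group; filled points passed the adjusted test. Mthfd2, at 0.92, lies farthest to the right, and the 2 filled points to the left of 0 are Deptor and Eef2k.

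Among 16 genes that control initiation, 1 rose and 1 fell. Ppp1r15a (GADD34), which recruits a phosphatase to eIF2 alpha, lay at 6.57, 6.45 and 6.50 in wild type and 7.09, 6.99 and 7.10 in knockdown. It rose by 0.55 ± 0.10 (1.47-fold, adjusted p = 0.00786), and its adjusted p was 0.0568 and 0.0544 without wild type mouse 2 or 3. Deptor, an inhibitor of mTOR, lay at 7.94, 8.07 and 7.99 and then 7.60, 7.67 and 7.46. It fell by 0.42 ± 0.10 (adjusted p = 0.0353), and the call was left only without knockdown mouse 3 among the fits with 1 array out (adjusted p = 0.00755, and 0.0589 to 0.163 in the others); it was 0.0551 after median centring. The kinase Mtor itself differed by 0.15 ± 0.10 (adjusted p = 0.432; named after its values were seen).

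Of 21 partners of the initiation factors 2 rose. Larp1, which binds mRNAs that begin with a pyrimidine tract, had values of 10.68, 10.70 and 10.89 in wild type and 11.17, 11.08 and 11.51 in knockdown. Knockdown mouse 3 was the highest, and Larp1 rose by 0.50 ± 0.12 (adjusted p = 0.031), by 0.37 without that mouse. Without any 1 wild type mouse the adjusted p of Larp1 lay between 0.0536 and 0.134, and it was 0.0645 with the mean of its probe sets. Bzw2, a mimic of eIF5 that tightens start codon choice, lay at 9.80, 9.85 and 9.97 and then 10.24, 10.26 and 10.19. It rose by 0.36 ± 0.08 (adjusted p = 0.0241), a call left only without knockdown mouse 3 among the fits with 1 array out (adjusted p = 0.0029, and 0.0549 to 0.131 in the others). Pabpc1, the poly(A) binding protein, differed by 0.03 ± 0.05 (adjusted p = 0.736; named after its values were seen).

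Of 10 genes in the list for elongation and termination, which also holds related genes, 1 rose and 1 fell. Eef1e1, a small protein of the tRNA synthetase complex, lay at 9.55, 9.47 and 9.51 in wild type and 10.02, 10.26 and 10.33 in knockdown. It rose by 0.69 ± 0.10 (1.61-fold, adjusted p = 0.00331), a call kept with any 1 array left out. Eef2k, the kinase that slows elongation through eEF2, lay at 8.87, 8.91 and 8.93 and then 8.47, 8.53 and 8.30. It fell by 0.47 ± 0.10 (adjusted p = 0.0197), and its adjusted p lay between 0.0887 and 0.11 without any 1 wild type mouse. Of 3 mitochondrial initiation genes 0 passed limma's adjusted test, 0 had an unadjusted p under 0.05, and their differences lay between -0.12 and 0.07.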

How the data were processed

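Total RNA of sorted bone marrow cells was measured on 6 arrays, 1 per mouse, with 3 wild type and 3 MYB knockdown mice. The deposited table holds log2 values per probe set, made by the authors. Affymetrix Expression Console and limma were used, per the submitters' processing notes; neither versions nor a normalization method are recorded there. Trizol extraction preceded whole-transcript amplification and biotin labelling, per the labels' protocols.

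The platform annotation gave 1 symbol to 21789 of 35556 probe sets and several to 1621; the remaining 12146 are unnamed here. Genes in the lowest 30% by mean over all 6 arrays were left out. The test was limma 3.58.1 in R 4.3.3 (lmFit, eBayes with a trend, no covariates), with the Benjamini-Hochberg adjustment over 13956 genes and a threshold of 0.05. It was tested on simulated data. Members and lists were chosen with earlier results of these data known. The genes named were Myb, each member that passed, the members of smallest p per role group (at most 4), Eif4e, Eif4ebp1, Eif4ebp2, Eif5a, Eif6 and up to 3 genes that passed in each pathway list. Genes named beyond this rule are marked. Promoters and symbols came from RefSeq (GRCm38.p6). The number of arrays limits the precision, and bright probe sets can understate a change.

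The fit was repeated with quantile normalization or median centring, with no filter or one at 50%, on averaged probe sets, with robust or untrended eBayes, with array weights, with a replicate block, at an adjusted p under 0.1 and without each array in turn. Probe sets kept apart and centring on probe sets with 1 symbol were chosen after seeing the data.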

Additional observations from a re-analysis of the deposited data

How the results depend on the processing

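The count of members called higher was 3 of 47 (6.38%, beside 6.12% of all genes). It was 5 with quantile normalization (10.6%, beside 7.14%) and 8 with median centring (17%, beside 10.3%). With the filter at 50%, which left 46 members, it was 5 (10.9%, beside 8.43%). It was 23 with array weights (48.9%, beside 16.8%) and 9 at an adjusted p under 0.1 (19.1%, beside 9.85%). With 1 array left out it ranged from 1 to 24. In all these settings 0 members were called lower. The members' median difference of 0.19 moved to 0.26 with median centring, while the median over all genes moved from 0.02 to 0.09. Of the genes in the pathway lists, 10 were called higher in the reported fit, 23 with array weights and 6 to 24 with 1 array left out. Those called lower were 2 in the reported fit, 1 with the replicate block, 1 with median centring, 6 with array weights, 4 at an adjusted p under 0.1 and 0 to 4 with 1 array left out. Signs turned for 4 named genes with differences near 0 or set by 1 mouse. Eif2ak1 was at -0.0061 with array weights, and with 1 array left out it lay between -0.00011 (knockdown mouse 1) and 0.092. Eif2ak4 was at 0.057 with median centring and 0.076 with array weights, and between -0.074 and 0.061 with 1 array left out, above 0 without wild type mouse 2 or knockdown mouse 3. Eif4ebp2 lay between -0.0084 (knockdown mouse 3) and 0.45, and Eif5a between -0.042 (wild type mouse 2) and 0.13, with 1 array left out. The cause of these changes was not tested.

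Replicate numbers name different mice. The deviations of same-numbered mice from their group means correlated at 0.29, -0.19 and -0.08, and not every mouse correlated best with its own number, so the numbers were not taken as pairs. With the replicate block 2 members were called higher, Eif3i being lost (adjusted p = 0.0795) as were Bzw2, Dohh and Deptor among the other named genes, and the pathway lists had 8 genes called higher and 1 lower. Over the named genes and all settings but the threshold of 0.1, for which no genes were tallied, 472 values kept direction and side of the threshold, 33 passed newly, 46 no longer passed and 9 turned sign. The 3 arrays per group, and signals near the level of 5.11 below which genes were left out, limit what can be seen.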
